A study of Homo sapiens with 2 samples.

Results

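The genes described here encode alpha and beta tubulin, measured in 2 libraries of TPC-1 cells, an established human line derived from a papillary carcinoma of the thyroid. RNA came from cells that received a control siRNA in 1 library and an siRNA against XPR1, the phosphate exporter of human cells, in the other. The line carries the CCDC6-RET fusion, so both libraries share it. Neither how long the siRNAs acted nor their sequences are stated in the labels, and since each condition is a single library, no statistical test between them was possible. The 10 genes, 4 alpha (TUBA1A, TUBA1B, TUBA1C, TUBA4A) and 6 beta (TUBB, TUBB2A, TUBB2B, TUBB3, TUBB4B, TUBB6), were chosen by name with their values in these libraries already known, so those values are a description. All 10 were found among 58884 genes in the table of TPM (a length-corrected share of the transcripts of a library, scaled to a sum of 1000000). A higher TPM cannot be told apart from lower RNA of other genes, and more RNA per cell cannot be told apart from more cells that express a gene.

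Alpha and beta tubulin pair into the heterodimer from which microtubules are built, so cells need both proteins in equal amounts. Vertebrates carry several genes for each, called isotypes, whose proteins are nearly the same in the folded body and differ mostly in the acidic C-terminal tail that binds motors and associated proteins. The amount of tubulin mRNA is under feedback: when unpolymerized tubulin is in excess, the factor TTC5 recognizes the first residues of a newly made tubulin on the ribosome, and through SCAPER and the CCR4-NOT complex the mRNA is degraded.

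The first 60 coding bases of 1 principal GENCODE 29 transcript per beta gene are shown because they encode the first residues, which this feedback recognizes, and because they show how alike the isotype mRNAs are. Each starts with 4 codons for methionine, arginine, glutamate and isoleucine. The capitals mark bases that differ from TUBB.
TUBB: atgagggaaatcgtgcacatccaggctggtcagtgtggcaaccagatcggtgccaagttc
TUBB2A: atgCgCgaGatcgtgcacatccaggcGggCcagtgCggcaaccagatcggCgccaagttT
TUBB2B: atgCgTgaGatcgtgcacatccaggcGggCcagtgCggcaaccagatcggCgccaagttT
TUBB3: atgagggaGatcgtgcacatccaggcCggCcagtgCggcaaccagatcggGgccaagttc
TUBB4B: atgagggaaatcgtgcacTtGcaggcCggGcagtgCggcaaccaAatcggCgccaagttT
TUBB6: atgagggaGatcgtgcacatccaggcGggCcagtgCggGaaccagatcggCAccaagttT
Against TUBB, the other beta genes differed at 5 bases (TUBB3) or 8 bases (the remaining 4). Over the whole coding sequence TUBA1A and TUBA1B had the same base at 97.2% of aligned positions, TUBA1A and TUBA1C at 95.9%, and TUBB2A and TUBB2B at 98.1%. TUBB shared 81.0% to 84.7% of positions with the other beta genes.

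The knockdown and the libraries were checked first. XPR1 itself stood at 39.2 TPM with the control siRNA against 5.31 TPM with the XPR1 siRNA, 13.5% of the control level. Reads recovered from the TPM values came to about 15780000 with the control siRNA and 15150000 with the XPR1 siRNA, and 1 read in a transcript of 2000 bases was worth 0.118 and 0.123 TPM. Intervals below are 95% intervals from those reads and cover counting error only, not the spread between cultures. Of 10 thyroid or epithelial markers, 5 reached a mean of 1 TPM, among them the thyroid transcription factor PAX8 at 588.1 and 408.6 TPM, while NKX2-1 and EPCAM were listed at 0 in both. KRT7, an epithelial keratin, was the 1 marker of these 5 that was 2-fold or more apart, at 11.1 and 3.39 TPM. Of protein-coding genes averaging 1 TPM or more, 4.57% lay that far below control and 8.75% above. The median difference of the 5 markers was -0.52 on the log2(TPM + 1) scale.

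Every one of the 10 genes had a higher TPM in the XPR1-siRNA library, and for 8 of them the interval of the ratio lay above 1. The shares of all genes that meet these marks were not computed, so these counts do not show how unusual the tubulin genes are. The 10 genes summed to 928.7 TPM with the control siRNA against 2987 TPM with the XPR1 siRNA, a ratio of 3.22 (3.15 to 3.28). TUBB3 averaged under 1 TPM and was not compared by size. Of the other 9, 6 lay 2-fold or more above control and 0 lay 2-fold or more below it on the log2(TPM + 1) scale. Among the 11698 protein-coding genes that averaged 1 TPM or more, 8.75% lay that far above control and 4.57% that far below. At 1.5-fold, 7 of the 9 lay above and 0 below, beside 20.7% and 11.1% of protein-coding genes. The median difference was 1.56 for the 9 tubulin genes and 0.10 for all protein-coding genes compared. Since the genes were chosen with these values known, the counts describe them and support nothing.

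**Figure D1:**
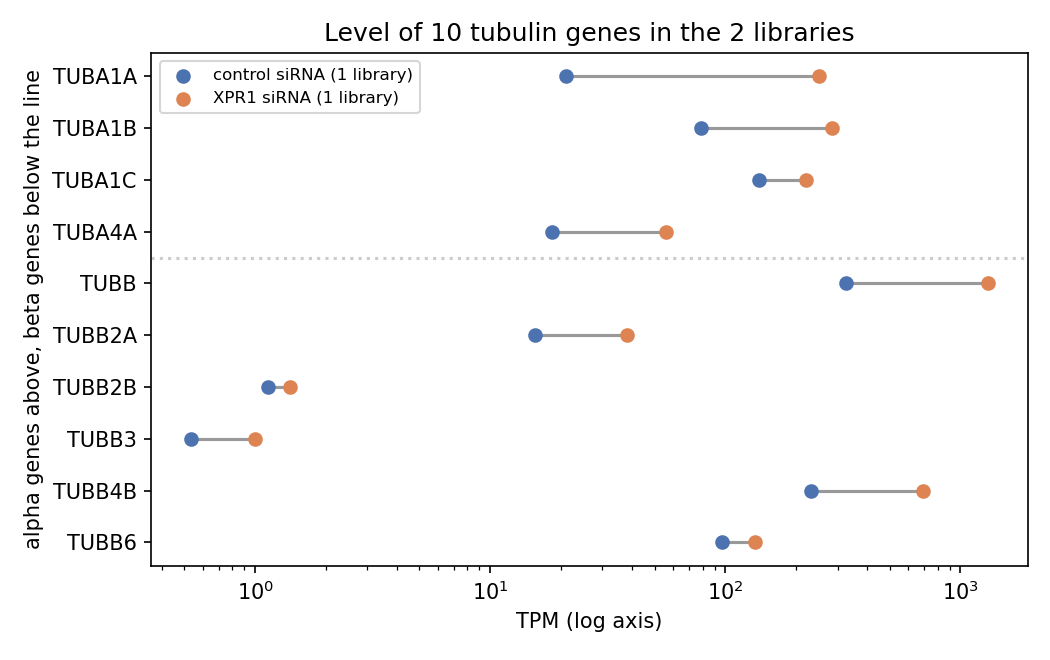
TPM of each of the 10 tubulin genes (log axis) in the control library (blue) and the XPR1-siRNA library (orange), 1 library each, with no error bars. The orange point lies to the right of the blue one for every gene, with the widest gap at TUBA1A (21.0 and 250.8 TPM).

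The genes lie on 6 chromosomes of GRCh38 (GENCODE 29). Each value is for a gene as a whole, over exons of an annotation release that is not named. The length that gave whole reads differed from GENCODE 29 for some genes, such as TUBA1A at 3178 against 3421 bases. TUBA1B (ENSG00000123416, chr12:49127782-49131397), TUBA1A (ENSG00000167552, chr12:49184796-49189324) and TUBA1C (ENSG00000167553, chr12:49188736-49274603) are neighbours, with TUBA1C on the plus strand and the others on the minus strand. TUBA4A (ENSG00000127824) lies at chr2:219249711-219278170. TUBB (ENSG00000196230) lies at chr6:30720201-30725426, apart from TUBB2A (ENSG00000137267, chr6:3153669-3157526) and TUBB2B (ENSG00000137285, chr6:3224261-3231730). TUBB3 (ENSG00000258947) lies at chr16:89921392-89938761, TUBB4B (ENSG00000188229) at chr9:137241213-137243707 and TUBB6 (ENSG00000176014) at chr18:12307669-12344320.

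The alpha genes differed widely among themselves. TUBA1A, the alpha isotype best known from developing neurons, stood at 21.0 TPM with the control siRNA against 250.8 TPM with the XPR1 siRNA, a ratio of 11.9 (10.6 to 13.5, from 282 and 3236 reads). TUBA1B, expressed in most tissues, stood at 78.8 against 284.9 TPM, a ratio of 3.61 (3.39 to 3.86, from 1189 and 4134 reads). TUBA1C, also expressed in many tissues, stood at 138.7 against 220.5 TPM, a ratio of 1.59 (1.51 to 1.67, from 2710 and 4146 reads). These 3 intervals do not overlap, and the genes are neighbours on chromosome 12. TUBA4A, whose protein lacks the C-terminal tyrosine that the other alpha genes encode, was 18.4 and 56.1 TPM, 3.05-fold higher (2.68 to 3.48, from 308 and 904 reads). Among 11698 protein-coding genes ranked from the highest difference, TUBA1A was the 5th, TUBA1B stood at rank 150, TUBA4A at 322 and TUBA1C at 2050.

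Among the beta genes, TUBB had the highest level in both libraries. TUBB, the commonest beta tubulin of dividing cells, stood at 325.9 TPM with the control siRNA against 1305 TPM with the XPR1 siRNA, a ratio of 4.0 (3.87 to 4.14, from 4412 and 16996 reads), and went from place 327 to place 60 in the order of levels among the protein-coding genes compared. TUBB4B, another widely expressed isotype, stood at 231.7 against 695.3 TPM, a ratio of 3.0 (2.85 to 3.16, from 1992 and 5750 reads). TUBB2A was 15.5 and 38.2 TPM, 2.47-fold higher (1.98 to 3.10, from 114 and 271 reads). TUBB6, a divergent beta isotype, was 97.0 and 134.3 TPM, a ratio of 1.38 (1.3 to 1.48, from 1686 and 2245 reads), the lowest ratio among the tubulin genes above 10 TPM in both libraries. The intervals of TUBB and TUBB4B lay above that of TUBB6.

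The beta isotypes best known from neurons had few reads. TUBB3 was 0.535 and 1.00 TPM, from 10 and 18 reads, with a ratio of 1.87 whose interval (0.819 to 4.54) holds 1. TUBB2B was 1.13 and 1.41 TPM, from 10 and 12 reads, with a ratio of 1.25 (0.494 to 3.22). No difference was detected in either gene, and with this few reads only a large one could have been. TUBB3 shares most of its sequence with a longer gene, described below, and how reads that match both were counted is not known. Of 12 neuron markers none averaged 1 TPM or more. They summed to 2.00 TPM with the control siRNA against 1.64 TPM with the XPR1 siRNA, 6 were listed at 0 in both libraries, and STMN2, DCX and NEFL were among those 6. The order of these sums rests on RBFOX3, at 1.06 and 0.324 TPM, while SNAP25 stood at 0.353 and 0.880 TPM and SYT1 at 0.0371 and 0.154 TPM.

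**Figure D2:**
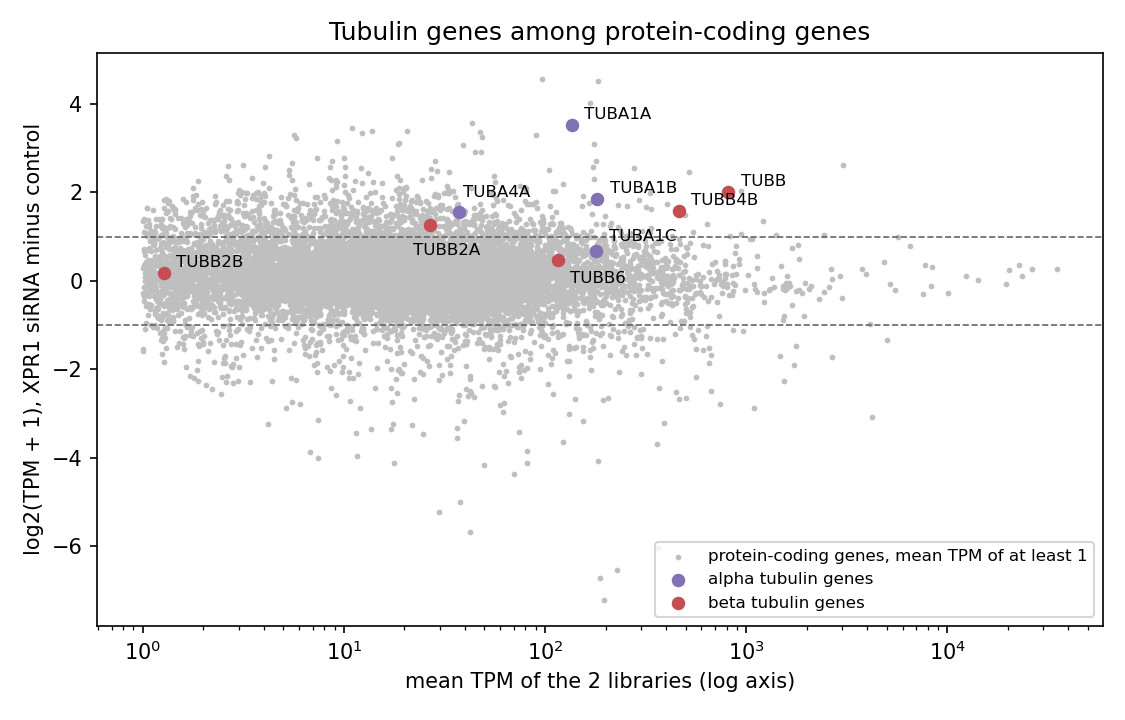
Difference on the log2(TPM + 1) scale, XPR1 siRNA minus control, against the mean TPM of the 2 libraries (log axis) for 11698 protein-coding genes (grey) and the 9 tubulin genes at this level (purple alpha, red beta); dashed lines mark 2-fold. TUBA1A stands at 3.51, TUBB at 2.00, and TUBA1C, TUBB6 and TUBB2B lie inside the lines.

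The order of the levels differed between the libraries among the alpha genes. In control it was TUBB, TUBB4B, TUBA1C, TUBB6, TUBA1B, TUBA1A, TUBA4A, TUBB2A, TUBB2B and TUBB3, from the highest TPM to the lowest. Neighbours in that order whose intervals overlapped were TUBA1A and TUBA4A, TUBA4A and TUBB2A, and TUBB2B and TUBB3. After XPR1 siRNA it was TUBB, TUBB4B, TUBA1B, TUBA1A, TUBA1C, TUBB6, TUBA4A, TUBB2A, TUBB2B and TUBB3, where only the intervals of TUBB2B and TUBB3 overlapped among neighbours.

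Summed over the isotypes, the alpha and beta pools differed between the libraries by almost the same ratio. The 4 alpha genes summed to 256.9 TPM with the control siRNA against 812.3 TPM with the XPR1 siRNA, a ratio of 3.16 (3.05 to 3.27). The 6 beta genes summed to 671.8 and 2175 TPM, 3.24-fold higher (3.16 to 3.32). The intervals of these 2 ratios overlap. By TPM, beta mRNA was 2.61 times alpha mRNA in control and 2.68 times after XPR1 siRNA. These ratios depend on the exon lengths by which TPM is corrected. Without that correction, beta reads were 8224 and alpha reads 4489 in control, and 25292 and 12420 after XPR1 siRNA.

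Within the alpha pool the make-up differed between the libraries. TUBA1C held 54.0% of alpha TPM in control and 27.1% after XPR1 siRNA, whereas TUBA1A held 8.18% and 30.9%. TUBA1B held 30.7% and 35.1%, and TUBA4A 7.16% and 6.91%. Of the 555.4 TPM by which the alpha pool was higher, TUBA1A made up 41.4%, TUBA1B 37.1%, TUBA1C 14.7% and TUBA4A 6.79%. Without TUBA1A the alpha pool was 2.38-fold higher (2.29 to 2.47).

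In the beta pool the order of the isotypes was the same in both libraries. TUBB held 48.5% of beta TPM in control and 60% after XPR1 siRNA, TUBB4B 34.5% and 32%, and TUBB6 14.4% and 6.17%. TUBB2A held 2.30% and 1.76%, and TUBB2B and TUBB3 less than TUBB2A in both. TUBB made up 65.1% of the 1503 TPM by which the beta pool was higher and TUBB4B 30.8%. Without TUBB the beta pool was 2.52-fold higher (2.42 to 2.62).

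**Figure D3:**
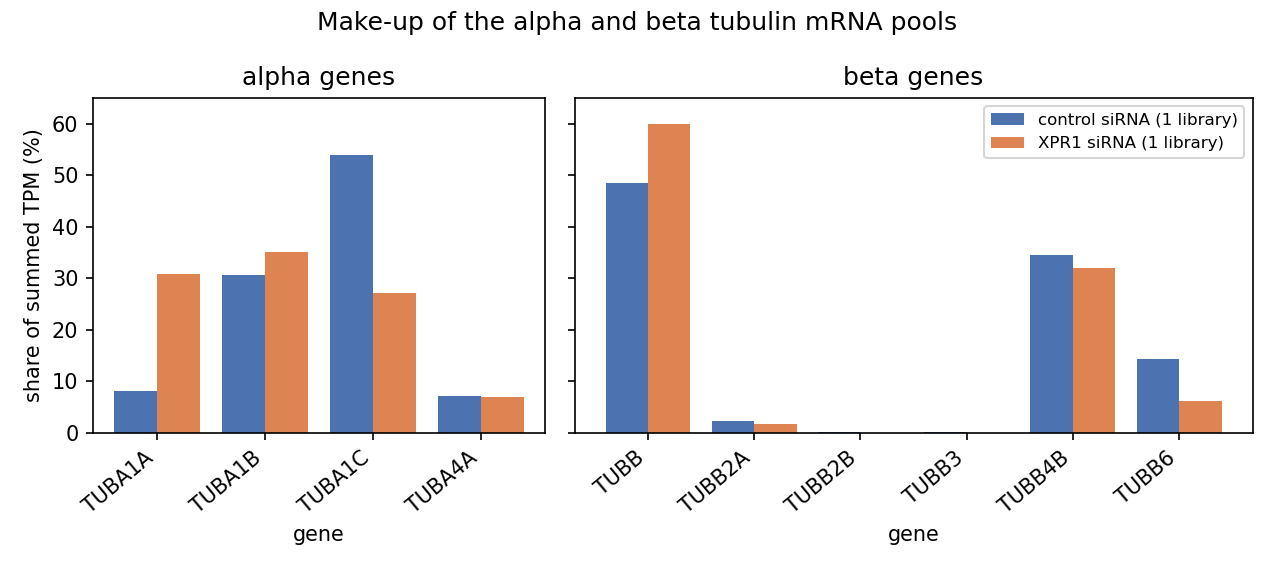
Share of the summed TPM of the 4 alpha genes (left) and of the 6 beta genes (right) held by each gene, in percent, in the control library (blue) and the XPR1-siRNA library (orange), 1 library each. The bars of TUBA1C stand at 54.0% and 27.1% and those of TUBA1A at 8.18% and 30.9%, while TUBB is the tallest beta bar in both.

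How firmly a read can be given to 1 of these genes depends on how much sequence they share. The read length and the handling of reads with several matches are not stated in the labels or the notes. Windows of 75 bases along the principal transcript were searched for on both strands of other transcripts. Of these, 36.6% in TUBA1A occurred unchanged in another of the 10 genes, as did 42.2% in TUBA1B and 17.0% in TUBA1C. In TUBB2A 56.8% did so, and in TUBB2B 44.4%. None did so in TUBA4A, TUBB or TUBB6, and 4.41% did in TUBB4B. Counting any other annotated gene on either strand, TUBB6 still shared 0 windows, TUBB4B 8.57%, TUBB 22.6%, TUBA4A 29.5% and TUBA1B 77.2%, while TUBB3 shared 89.2%, mostly with a longer gene that reads through it and was listed at 0 in both libraries.

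**Figure D4:**
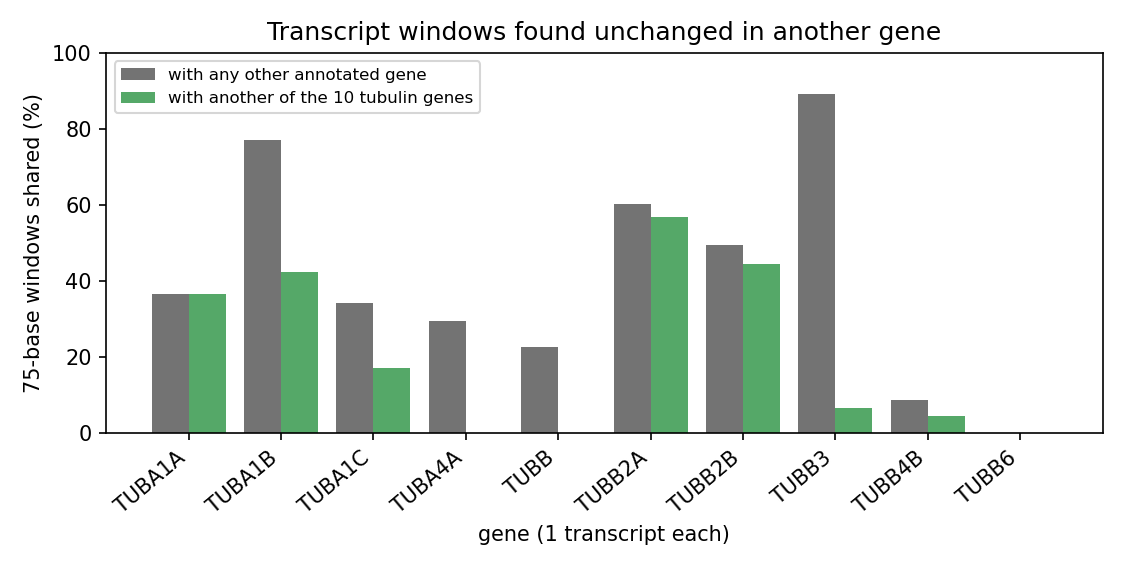
Share of 75-base windows of 1 transcript per tubulin gene that occur unchanged in any other annotated gene (grey) or in another of the 10 tubulin genes (green), in percent. TUBB6 has neither bar, and TUBA4A and TUBB have no green bar.

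Values for TUBA1A, TUBA1B, TUBA1C, TUBB2A, TUBB2B and TUBB3 are therefore uncertain one by one. As sums, which depend less on how reads were divided among near-identical genes, TUBA1A, TUBA1B and TUBA1C were 238.5 and 756.2 TPM, 3.17-fold higher (3.06 to 3.29), and TUBB2A with TUBB2B 16.6 and 39.6 TPM, 2.39-fold higher (1.93 to 2.95). The library kit does not mark strand, and TUBA1A and TUBA1C share 490 exonic bases on opposite strands, 14.3% of the exonic bases of TUBA1A. TUBA1B shares 1309 exonic bases, 36.6% of its own, with TUBA1B-AS1 on the opposite strand, which stood at 0 and 0.151 TPM. Antisense genes also overlap TUBB over 538 exonic bases (16.0%) and TUBA1C over 666 (14.4%). How reads in such overlaps were counted is not known, so TUBB also carries this limit. On the strand opposite TUBA4A, STK16 shares 627 exonic bases with it and stood at 18.6 and 16.9 TPM. AFG3L2, opposite TUBB6 over 837 exonic bases, stood at 43.5 and 41.6 TPM. Of 53 annotated tubulin pseudogenes, 12 were above 0 in either library, together 6.12 and 6.84 TPM. The 1 pseudogene that averaged 1 TPM or more was TUBB8P1 at 2.61 and 2.37 TPM.

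The promoters of 5 genes are shown: the 3 alpha neighbours, whose ratios differ, and TUBB and TUBB4B, the beta genes with the highest levels. Each covers 250 bases before to 50 bases after a RefSeq start on GRCh38.p14, written along the gene's strand. The capitals mark matches to 5 motifs, searched on both strands with overlaps included. The box bound by NF-Y was searched as CCAAT and the GC box as GGGCGG. The core promoter box was searched as TATAAA and the cell-cycle homology region (CHR) as TTTGAA. The heat shock element was searched as GAANNTTC, a pair of its units facing each other.
TUBA1A, chr12:49189031-49189330, minus strand: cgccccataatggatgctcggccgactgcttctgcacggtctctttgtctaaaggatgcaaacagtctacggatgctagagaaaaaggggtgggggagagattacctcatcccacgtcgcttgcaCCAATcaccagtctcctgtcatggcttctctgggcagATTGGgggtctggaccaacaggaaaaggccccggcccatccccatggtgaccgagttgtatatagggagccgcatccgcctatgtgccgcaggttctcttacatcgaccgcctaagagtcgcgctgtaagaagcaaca
TUBA1B, chr12:49131346-49131645, minus strand: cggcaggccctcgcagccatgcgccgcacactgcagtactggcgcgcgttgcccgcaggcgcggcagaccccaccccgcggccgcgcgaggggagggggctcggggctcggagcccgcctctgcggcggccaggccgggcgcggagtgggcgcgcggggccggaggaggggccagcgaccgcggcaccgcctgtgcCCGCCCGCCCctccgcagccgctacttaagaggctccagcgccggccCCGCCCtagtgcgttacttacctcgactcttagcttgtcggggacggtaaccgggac
TUBA1C, chr12:49264832-49265131, plus strand: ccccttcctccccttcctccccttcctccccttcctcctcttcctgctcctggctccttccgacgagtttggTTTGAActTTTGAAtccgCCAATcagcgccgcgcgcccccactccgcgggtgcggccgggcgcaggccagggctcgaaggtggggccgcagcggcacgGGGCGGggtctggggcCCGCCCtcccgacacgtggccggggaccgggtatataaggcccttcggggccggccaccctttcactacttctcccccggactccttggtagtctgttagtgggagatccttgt
TUBB, chr6:30720102-30720401, plus strand: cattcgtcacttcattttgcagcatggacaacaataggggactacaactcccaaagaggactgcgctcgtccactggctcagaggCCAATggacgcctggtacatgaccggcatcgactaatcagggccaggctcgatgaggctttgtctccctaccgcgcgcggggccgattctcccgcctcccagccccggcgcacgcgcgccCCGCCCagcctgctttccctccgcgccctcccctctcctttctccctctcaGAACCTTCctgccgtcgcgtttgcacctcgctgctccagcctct
TUBB4B, chr9:137241037-137241336, plus strand: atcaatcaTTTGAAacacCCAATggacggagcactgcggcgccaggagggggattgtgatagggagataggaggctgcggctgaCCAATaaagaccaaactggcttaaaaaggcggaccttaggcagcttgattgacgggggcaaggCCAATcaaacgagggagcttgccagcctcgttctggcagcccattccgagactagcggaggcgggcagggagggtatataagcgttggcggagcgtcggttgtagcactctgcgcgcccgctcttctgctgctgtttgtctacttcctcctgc
The CCAAT box occurred 3 times in TUBB4B, 2 times in TUBA1A and 1 time each in TUBA1C and TUBB, and was not in this window of TUBA1B. The GC box occurred 3 times in TUBA1B, 2 times in TUBA1C and 1 time in TUBB, and was not in the windows of TUBA1A and TUBB4B. Over 35116 promoters of this length, 34.6% held a CCAAT box and 45.0% a GC box. The CHR letters occurred 2 times in TUBA1C and 1 time in TUBB4B, and in 15.2% of all promoters. GAANNTTC occurred 1 time in TUBB and in 6.8% of all promoters, and the exact letters TATAAA in 0 of the 5 windows and 11.5% of all promoters. A window without TATAAA can still hold another form of the core promoter box, and other forms were not searched. The starts shown for TUBA1C and TUBB are 1 of 3 and 1 of 2 in RefSeq, picked after the matches were seen, and the others differ. The other TUBB start (chr6:30721388-30721687) held 6 GC boxes, 0 CCAAT boxes and 0 matches to GAANNTTC. Both other TUBA1C starts held 0 GC boxes, 1 CCAAT box, 1 match to the CHR letters and 1 match to GAANNTTC. The windows of those 2 starts overlap, and their CCAAT and GAANNTTC matches are the same bases. These matches describe letters only.

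Other members of the tubulin superfamily had no common direction. Of 13 such genes, 6 reached a mean of 1 TPM, with a median difference of 0.26. Of these 6, 1 lay 2-fold or more above control and 1 that far below, beside 8.75% and 4.57% of protein-coding genes. TUBG1, the gamma tubulin that nucleates microtubules, was 23.9 and 54.3 TPM, 2.27-fold higher (1.95 to 2.65). TUBE1, the epsilon tubulin of centrioles, was 26.0 and 6.71 TPM, 3.87-fold lower (3.30 to 4.55). TUBD1 was 4.76 and 8.42 TPM, TUBG2 7.38 and 10.7 TPM, TUBA3D 3.17 and 3.29 TPM and TUBAL3 3.44 and 2.20 TPM. TUBB4A and TUBA3C were listed at 0 in both libraries.

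The machinery that folds tubulin differed little between the libraries. Of 22 genes of prefoldin, the CCT chaperonin and the tubulin cofactors that averaged 1 TPM or more, 19 were within 1.5-fold, with a median difference of 0.17 and sums of 2979 and 3028 TPM. TBCEL, a relative of cofactor E, was 17.1 and 7.23 TPM and the single gene at least 2-fold lower. At 1.5-fold, 1 of the 22 was higher and 2 were lower, beside 20.7% and 11.1% of protein-coding genes. Of the genes of the mRNA feedback, 12 of 12 were within 1.5-fold, whereas 20.7% of protein-coding genes lay that far higher and 11.1% lower. Their median was 0.11, beside 0.10 for all protein-coding genes compared. Chosen after their values were seen, TTC5 was 5.93 and 7.41 TPM and SCAPER 6.12 and 6.53 TPM.

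Enzymes that modify tubulin included 2 genes at least 2-fold higher and 0 lower among 16 compared, with a median of 0.42. Over all protein-coding genes compared, 8.75% were that far higher and 4.57% that far lower. VASH1, which removes the C-terminal tyrosine of alpha tubulin, was 2.53 and 8.76 TPM, 3.47-fold higher (2.68 to 4.54). VASH2, which does the same, averaged 1 TPM or more only through the XPR1-siRNA library, so its count as higher was set by that filter. VASH2 was 0.104 and 2.44 TPM, with a ratio of 23.4 (8.82 to 87.7) that rests on 4 reads in control. Chosen after their values were seen, their partner SVBP was 5.61 and 10.6 TPM, the ligase TTL, which puts the tyrosine back, 31.5 and 26.1 TPM, and the deacetylase SIRT2 11.7 and 23.4 TPM. At 1.5-fold, 6 of the 16 were higher and 0 lower, beside 20.7% and 11.1% of protein-coding genes.

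Of 20 other genes of microtubule nucleation, 0 were at least 2-fold apart, beside 8.75% of protein-coding genes that far higher and 4.57% lower. Their median was 0.23, beside 0.10 for all protein-coding genes compared. The gamma tubulins TUBG1 and TUBG2, given above, were not in this list. At 1.5-fold, 5 of the 20 were higher and 0 lower, beside 20.7% and 11.1% of protein-coding genes. Of 33 microtubule-associated and plus-end proteins, 3 were at least 2-fold higher and 1 lower, near the 8.75% and 4.57% of all protein-coding genes. At 1.5-fold 8 were higher and 4 lower, and the median was 0.16. MAPRE2, a plus-end binding protein, was 10.1 and 26.4 TPM, 2.62-fold higher (2.26 to 3.03), GTSE1 2.44-fold higher (2.11 to 2.83) and EML1 2.49-fold higher (2.11 to 2.96). EML2 was 47.5 and 21.2 TPM, 2.24-fold lower (2.05 to 2.45). Among 14 factors that depolymerize, sever or sequester tubulin, 2 were at least 2-fold higher and 0 lower, and at 1.5-fold 5 were higher and 0 lower, with a median of 0.20 (all protein-coding genes: 8.75% higher at 2-fold and 20.7% at 1.5-fold). STMN1, stathmin, which sequesters tubulin dimers, was 63.5 and 156.9 TPM, 2.47-fold higher (2.33 to 2.62), and the severing protein FIGN 19.7 and 46.0 TPM, 2.33-fold higher (2.15 to 2.54). Each of these medians lay below the 1.56 of the alpha and beta genes.

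**Figure D5:**
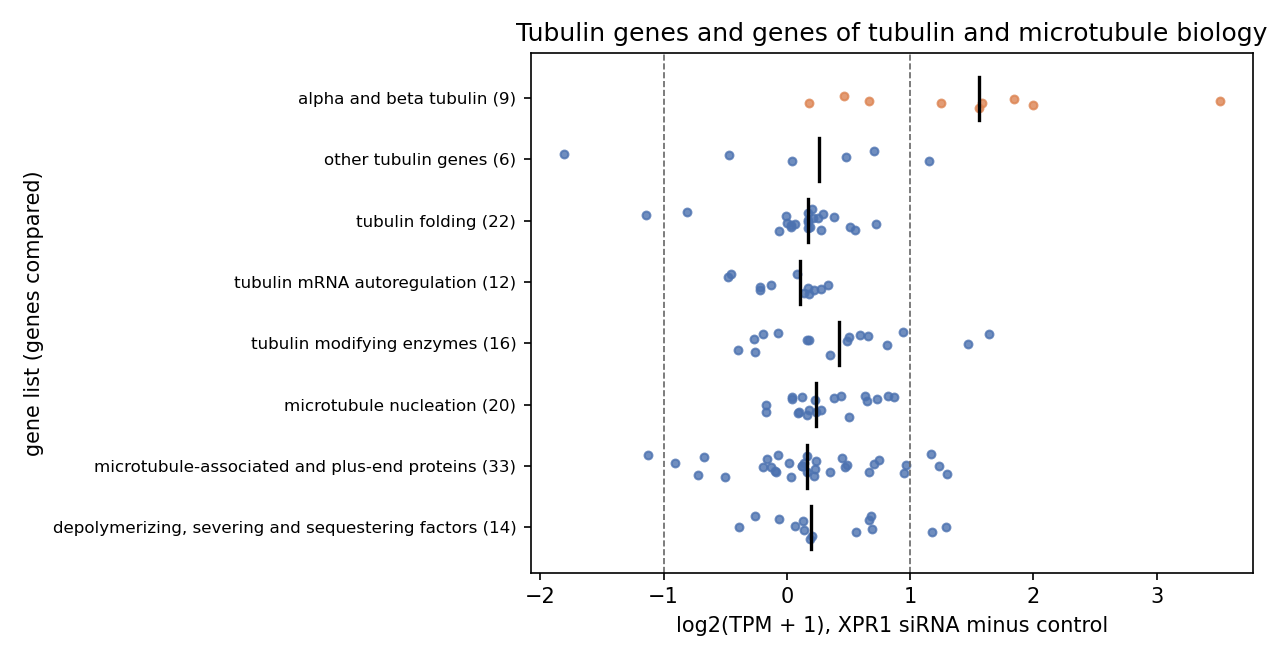
Difference on the log2(TPM + 1) scale, XPR1 siRNA minus control, for each gene averaging 1 TPM or more in the alpha and beta tubulin set (orange) and in 7 lists of related genes (blue), with the number of genes in brackets, black bars at the medians and dashed lines at 2-fold. The tubulin median is 1.56 and the other medians lie between 0.11 and 0.42.

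Markers of other cell types were low in both libraries. None of 7 leukocyte markers averaged 1 TPM or more, their sums were 1.04 and 1.13 TPM, and CD3E and LYZ were listed at 0 in both. Of 6 endothelial markers 1 did, with sums of 2.75 and 1.70 TPM and CLDN5 listed at 0 in both. Of 8 fibroblast markers, 2 did, both 2-fold or more above control, beside 8.75% of protein-coding genes. These were COL1A1 at 1.04 and 6.67 TPM and PDGFRB at 1.03 and 3.25 TPM. The 8 summed to 2.55 and 11.1 TPM, and DCN and FAP were listed at 0 in both. LUM stood at 0.0887 and 1.11 TPM and COL3A1 at 0.209 and 0.0723 TPM, while COL1A2 (0.0637 TPM) and PDGFRA (0.124 TPM) were above 0 in control alone. The part of these markers in the tubulin values was not tested.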

How the data were processed

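RNA was measured in 2 libraries, 1 per group. Per the labels' protocols, the TruSeq RNA v2 kit, which does not mark strand, was used. The submitters' processing notes name FastQC, MultiQC, Trimmomatic 0.38, featureCounts 2.0.0 and GRCh38; no aligner or annotation release is named there. The deposited values are TPM, made by the authors, and sum to 1000000 in each library.

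Symbols came from a table of identifiers (58472 of 58884 matched) and otherwise from GENCODE 29, which gave coordinates and exon lengths. Promoters are from RefSeq (GRCh38.p14), where all 10 genes matched. Differences are on the log2(TPM + 1) scale, for genes averaging 1 TPM or more, and ratios are of TPM. Reads were recovered as TPM times length over the value of 1 read, at the whole length nearest to GENCODE 29 at which both libraries held whole reads (within 0.003 reads). The search over lengths was chosen after seeing the data. For TUBB 3 lengths met this and for TUBB3 and VASH2 2 did, so their reads and intervals rest on the nearest length. Ratio intervals are Clopper-Pearson, those of levels exact Poisson, and those of sums normal approximations on the log scale (SciPy 1.17.1). The procedure was tested on simulated data made with the GENCODE 29 lengths, so the search for an unknown length was not tested.

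Some items are not reported here. The genes and lists were chosen with earlier results of these data known. Named genes are the 10 members, XPR1, other tubulin genes and pseudogenes averaging 1 TPM or more, and up to 4 farthest of those at least 2-fold apart in each list. All other genes named (cell type markers at 0 or quoted for level, tubulin genes at 0, overlapping genes, and those so marked) were chosen after their values were seen.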

Additional observations from a re-analysis of the deposited data

How the results depend on the processing

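The number of tubulin genes at least 2-fold higher (6) and lower (0) was the same under every scaling, pseudocount and floor tried. The ratio of the summed alpha genes was 3.04 under median-of-ratios, 3.02 under upper-quartile and 3.01 under trimmed-mean scaling. That of the summed beta genes was 3.11, 3.10 and 3.08 under the same scalings and 3.15 with protein-coding genes only. The log2 difference of TUBA1A was 3.30 with a pseudocount of 5, and 1.66 when TUBA1A, TUBA1B and TUBA1C were summed. By reads, not corrected for length, TUBA1C held 33.4% of the alpha pool after XPR1 siRNA (32.6 to 34.2). TUBA1B held 33.3% (32.5 to 34.1). These intervals overlap, so the order of the 2 genes was not resolved by reads, whereas by TPM TUBA1B was higher. No paired analysis was possible because the conditions were sequenced as a single library apiece. For the same cause no library could be left out. The planned comparison of protein sequences was not run.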
